A study of Nothobranchius furzeri with 16 samples.

Results

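The C/EBP family in the killifish brain was read from the rows of the deposited table whose symbol was CEBPA, CEBPB, CEBPD, CEBPE, CEBPG or CEBPZ. This gave 5 genes of the 26739 rows, CEBPA (Nfu_g_1_003923), CEBPB (Nfu_g_1_001454), CEBPD (Nfu_g_1_020224), CEBPG (Nfu_g_1_003955) and CEBPZ (Nfu_g_1_000108), with 1 row each. No row carried the symbol CEBPE. Each sample was the brain of 1 turquoise killifish, Nothobranchius furzeri, an annual fish of short life that serves in research on ageing. The 8 bortezomib fish received an inhibitor of the proteasome at 500 µM, and the 8 vehicle fish received 1% DMSO in salt solution, both into the body cavity at 10 µl per g of body weight. All fish were 12 to 14 weeks post hatch, came from 1 hatch and were of both sexes. Treatment lasted 4 weeks, with injections on days 0, 6, 12, 18 and 24. RNA came from the cleared supernatant of a sonicated whole brain, so every value is an average over all cell types of that brain. In such bulk samples fewer cells of a type and less RNA per cell cannot be told apart.

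C/EBP proteins are basic leucine zipper transcription factors that bind DNA as dimers and recognise CCAAT-like sites. In mammals CEBPB and CEBPD are induced by cytokines, glucocorticoids and growth signals, and CEBPB is also a target of the cAMP pathway that neurons use after activity. CEBPA acts in the differentiation of liver, fat and myeloid cells. CEBPG lacks a strong activation domain and forms dimers with other family members and with ATF4. CEBPZ carries the family name through its binding to CCAAT boxes, has no leucine zipper and is related to a yeast factor of ribosome assembly. In the RefSeq gene table of assembly NfurGRZ-RIMD1, searched by symbol, cebpa and cebpg were direct neighbours, whereas cebpb and cebpd each stood alone among other genes. The search also found cebpz and a gene named cebp1, which is not among the symbols read here.

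The family was chosen by the measured TPM of CEBPB and CEBPD in these same brains, already known to be lower after bortezomib, so their difference between the groups is given as a description. The count of members called only places them in the fit over all genes and is no independent test. CEBPB and CEBPD stood at lower levels in bortezomib brains and differed widely among vehicle brains, whereas CEBPA, CEBPG and CEBPZ had similar medians in both groups. Values are TPM, which are divided by gene length and scaled to 1000000 per fish, so levels of different genes can be set side by side. Of the 5 members 2 were called lower and none higher over all 18529 genes tested, at an adjusted p under 0.05 in limma on log2(TPM + 1). Of all genes tested 1.25% were called lower, 3.61% higher and 4.86% in either direction, and nothing is read from the members' count. In genes this was 669 higher and 232 lower, against 537 higher and 388 lower with median-of-ratios scaling. With upper-quartile scaling 499 were higher and 398 lower, and quantile normalization gave 549 higher and 563 lower.

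CEBPB, a factor of the acute response that is also linked to memory in mammals, stood at 22.3, 15.9, 19.5, 32.5, 18.9, 15.3, 21.5 and 14.3 TPM in bortezomib replicates 1 to 8. In vehicle replicates 1 to 8 it stood at 24.5, 23.8, 90.4, 48.4, 102, 158, 113 and 39.4 TPM. Bortezomib fish lay close together apart from replicate 4, while vehicle replicates 1 and 2 lay beside the bortezomib brains and the other 6 vehicle brains lay above every one of them. The mean was 20.0 ± 5.82 TPM in bortezomib brains and 75.0 ± 48.5 TPM in vehicle brains (SD, n = 8 each), a log2 difference of -1.60 ± 0.35 (SE). The difference between the group medians was -1.73 on the same scale. Only 4 of the 18529 genes tested had a more negative log2 difference, a rank given as a description, since the family was chosen on this difference.

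CEBPD, an acute-response factor that glucocorticoids and cytokines induce in mammals, stood at 81.2, 33.6, 59.3, 70.4, 39.3, 38.2, 30.5 and 42.6 TPM in bortezomib replicates 1 to 8. In vehicle replicates 1 to 8 it stood at 80.4, 40.3, 89.0, 155, 264, 285, 269 and 112 TPM. The groups overlapped in vehicle replicates 1 and 2, and the other 6 vehicle brains lay above the highest bortezomib brains. The mean was 49.4 ± 18.6 TPM in bortezomib brains and 162 ± 97.3 TPM in vehicle brains (SD, n = 8 each), a log2 difference of -1.50 ± 0.36 (SE). It was the most abundant C/EBP transcript in 4 of 8 bortezomib brains and in 6 of 8 vehicle brains. No member separated the groups fully, while every bortezomib brain lay below every vehicle brain in 0.221% of all genes tested and above every vehicle brain in 1.08%.

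**Figure D1:**
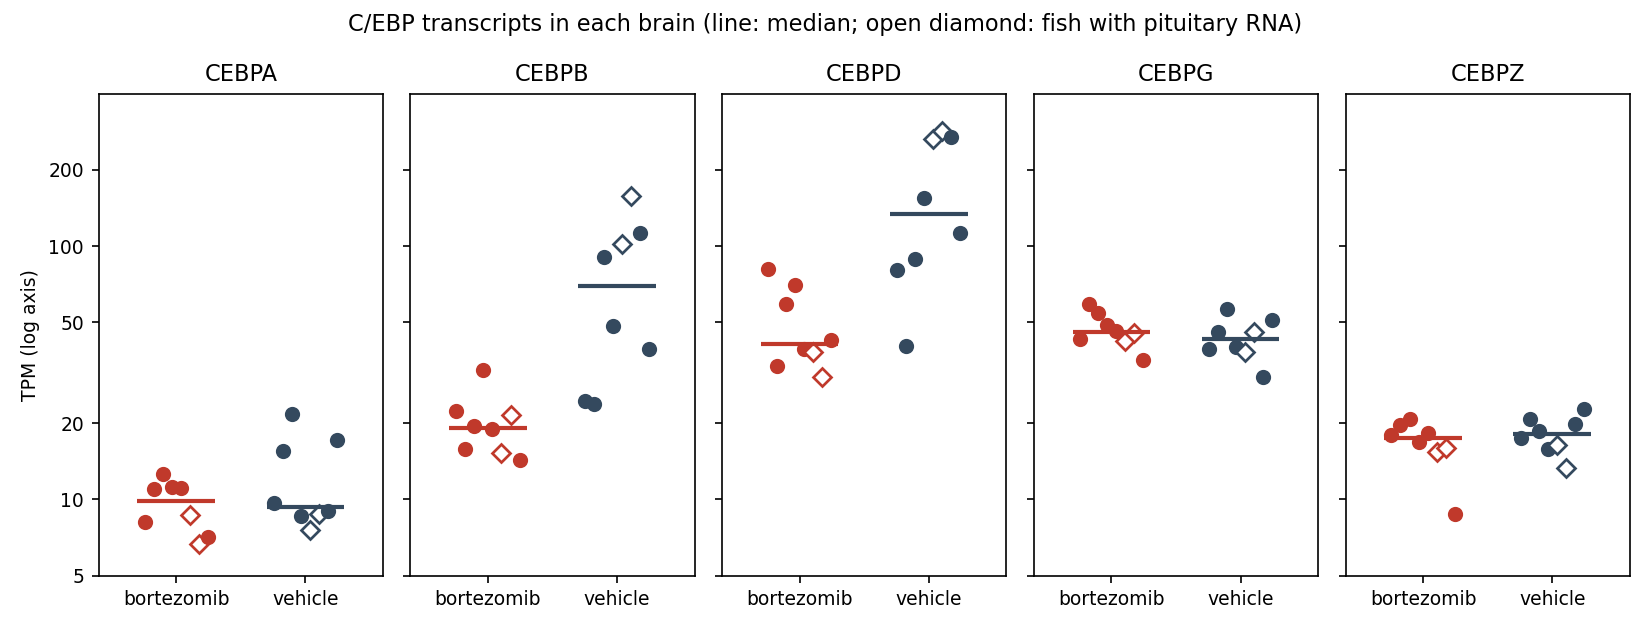
TPM of each C/EBP gene on a log axis, with 1 point per fish, bortezomib brains left of vehicle brains, the group median as a line, and open diamonds for the 4 fish with pituitary transcripts. In CEBPB and CEBPD 6 of 8 vehicle brains lay above the highest bortezomib brains, and in CEBPG none did.

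CEBPA stood at 6.68 TPM in the lowest, 9.84 TPM at the median and 12.6 TPM in the highest bortezomib brains. In vehicle brains these values were 7.57, 9.34 and 21.7 TPM, with replicates 2, 3 and 8 well above the other 5. Because of those 3 fish the means and medians pointed in opposite directions, with a log2 difference of -0.27 ± 0.20 (SE) between means and 0.061 between medians. CEBPG stood at 35.5, 45.8 and 59.3 TPM in bortezomib brains (lowest, median, highest) and at 30.4, 42.9 and 56.6 TPM in vehicle brains, a log2 difference of 0.12 ± 0.12 (SE). CEBPZ stood at 8.72, 17.4 and 20.7 TPM in bortezomib brains and at 13.3, 18.1 and 22.7 TPM in vehicle brains. Its log2 difference was -0.13 ± 0.15 (SE), and -0.012 without bortezomib replicate 8, which held its lowest value. The 2 groups overlapped over most of their ranges in CEBPG and CEBPZ. In CEBPA 3 of 8 vehicle brains lay above every bortezomib brain, and 2 of 8 bortezomib brains lay below every vehicle brain.

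The order of the levels differed among fish. CEBPD was above CEBPB in 8 of 8 bortezomib brains and 7 of 8 vehicle brains, the exception being vehicle replicate 3 at 89.0 against 90.4 TPM. CEBPB was above CEBPG in 0 of 8 bortezomib brains and in 5 of 8 vehicle brains. CEBPB and CEBPZ could not be ordered among bortezomib brains, where CEBPB was the higher in 5 of 8, but CEBPB was higher in 8 of 8 vehicle brains. CEBPA was the lowest member in all 8 bortezomib brains and in 7 of 8 vehicle brains. CEBPB and CEBPD together made up 35.5% to 59.9% of the summed C/EBP TPM in bortezomib brains (mean 48.0%) and 43.8% to 86.7% in vehicle brains (mean 70.9%). The summed C/EBP TPM was 142 ± 27.2 in bortezomib brains and 311 ± 134 in vehicle brains (SD, n = 8 each). The ratio of CEBPD to CEBPB within a fish was 2.49 ± 0.70 in bortezomib brains and 2.35 ± 0.80 in vehicle brains, and the ranges of the ratio overlapped.

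**Figure D2:**
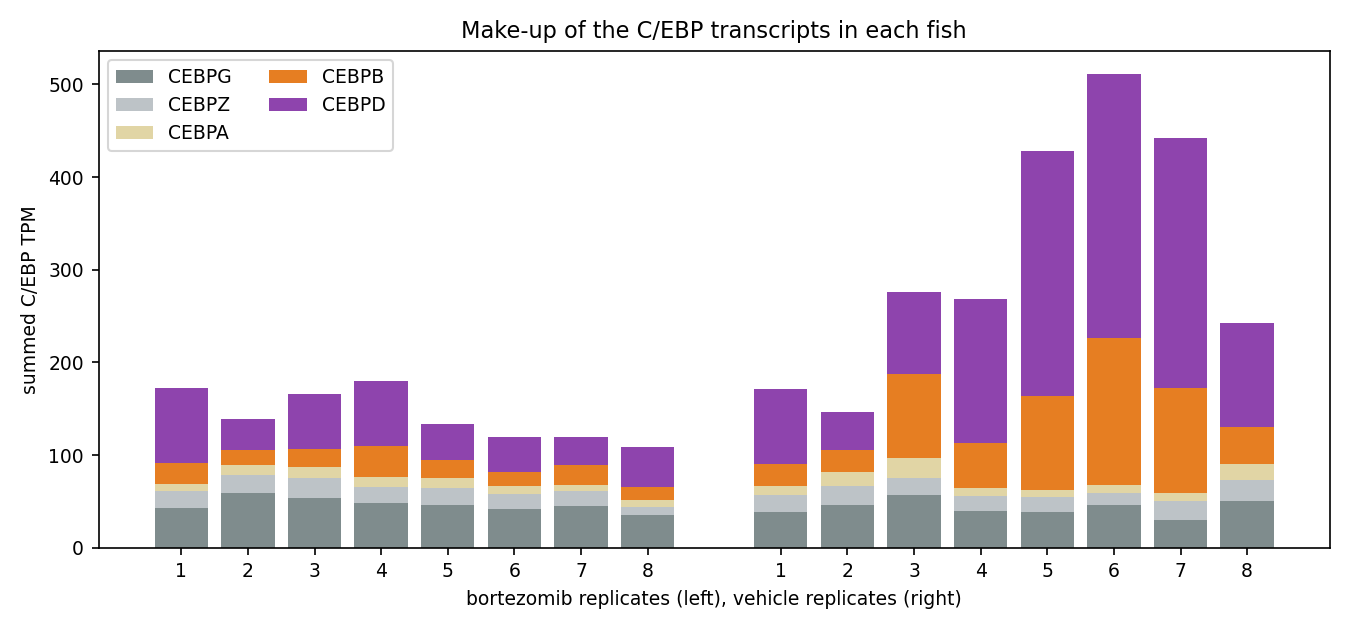
Summed TPM of the 5 C/EBP genes in each fish, stacked by gene, with bortezomib replicates 1 to 8 on the left and vehicle replicates 1 to 8 on the right. The sums run from 108 to 180 TPM in bortezomib brains and from 146 to 511 TPM in vehicle brains, and the CEBPB and CEBPD segments carry the difference in height.

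Spread among vehicle brains was wide in CEBPB and CEBPD. The highest bortezomib brains stood 2.27-fold above the lowest in CEBPB and 2.67-fold in CEBPD, and the highest vehicle brains stood 6.65-fold and 7.07-fold above the lowest. The SD of log2(TPM + 1) was 0.36 in bortezomib brains and 1.02 in vehicle brains for CEBPB, and 0.51 in bortezomib brains and 1.00 in vehicle brains for CEBPD. Among the 18529 genes tested the vehicle SD was larger in 316 genes than that of CEBPB, in 333 than that of CEBPD and in 2021 than that of CEBPA. The vehicle ranks of CEBPB and CEBPD are a description, since their high vehicle brains were known when the family was chosen. The bortezomib SD was larger in 4905 genes than that of CEBPB and in 2124 genes than that of CEBPD. The median SD over all genes was 0.25 in bortezomib brains and 0.24 in vehicle brains. CEBPG had an SD of 0.22 in bortezomib brains and 0.27 in vehicle brains, near that median, and CEBPA had 0.31 and 0.52. CEBPZ went the other way, with an SD of 0.36 in bortezomib brains, where replicate 8 stood far below the rest, and 0.23 in vehicle brains. The coefficient of variation of TPM was 29.1% in bortezomib brains and 64.7% in vehicle brains for CEBPB, and 37.8% and 60.1% for CEBPD.

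Vehicle replicates 5, 6 and 7 held the 3 highest values of both CEBPB and CEBPD. Summed pituitary hormone markers (growth hormone, prolactin and others) were over 10 times the median in 4 brains, bortezomib replicates 6 and 7 and vehicle replicates 5 and 6. These 4, at 2069 to 5477 TPM, are called fish with pituitary transcripts. The other 12, at 3.88 to 18.4 TPM, are called fish with few pituitary transcripts. CEBPD stood at 38.2 and 30.5 TPM in bortezomib replicates 6 and 7 and at 264 and 285 TPM in vehicle replicates 5 and 6. Vehicle replicate 7, with CEBPD at 269 TPM, had a pituitary marker sum of 5.14 TPM. Among the other 12 fish CEBPB averaged 20.6 ± 6.49 TPM in bortezomib brains and 56.6 ± 36.9 TPM in vehicle brains (SD, n = 6 each), a log2 difference of -1.22. In the same fish CEBPD averaged 54.4 ± 19.0 and 124 ± 80.5 TPM, a log2 difference of -1.01. Within the 4 fish with pituitary transcripts the log2 differences were -2.74 for CEBPB and -2.97 for CEBPD. The part of pituitary tissue in these values was not tested.

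**Figure D3:**
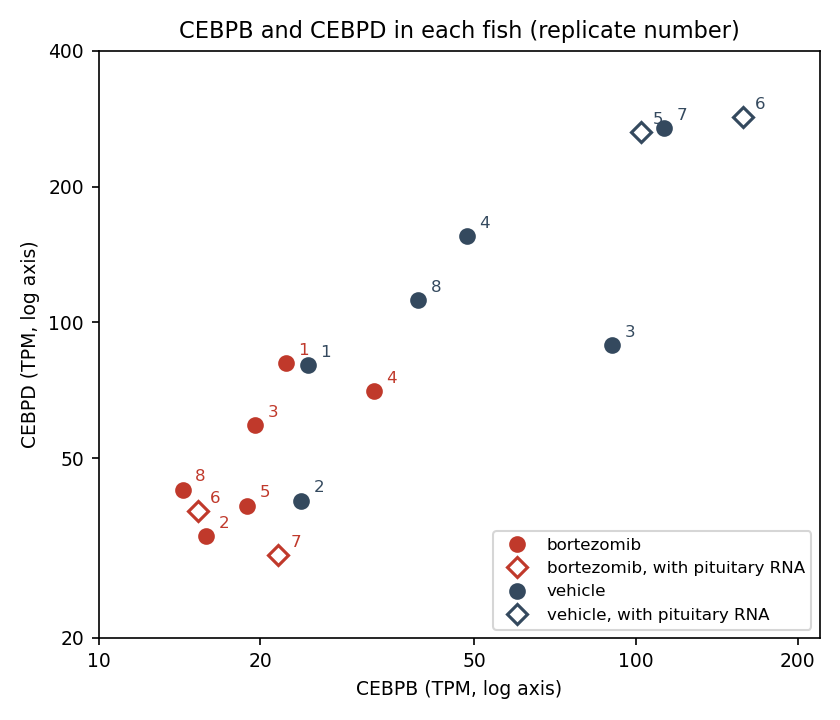
CEBPB against CEBPD in TPM, both on log axes, with 1 point per fish labelled by its replicate number. Vehicle replicates 5, 6 and 7 lie at the upper right with CEBPD at 264 TPM or more, and vehicle replicates 1 and 2 lie among the bortezomib brains.

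Relations between members were computed within each group, 20 in all (10 pairs in each group, n = 8 fish each, two-sided exact permutation tests adjusted by Benjamini-Hochberg over the 20). CEBPB and CEBPD had a Pearson r of 0.595 in bortezomib brains (exact permutation p = 0.118, adjusted p = 0.294) and a Spearman rho of 0.452 (exact p = 0.268, adjusted p = 0.446). Without the 2 fish farthest from the median of CEBPB r was 0.484, and over the 6 bortezomib fish with few pituitary transcripts it was 0.742. In vehicle brains r was 0.838 and rho 0.929. The r was 0.655 without the 2 farthest fish and 0.739 over the 6 fish with few pituitary transcripts. That the same vehicle brains were high in both genes was known when the family was chosen, so the vehicle values are a description without a p. The vehicle pair still counts among the 20 in the adjustment. The relation among bortezomib brains did not pass, and the difference between the groups in r was not tested.

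The neighbouring genes CEBPA and CEBPG had r of 0.749 in bortezomib brains and 0.791 in vehicle brains (exact permutation p = 0.0291 and 0.0165, adjusted p = 0.140 and 0.110), so neither passed after adjustment. Their rho was 0.690 and 0.738 (exact permutation p = 0.0694 and 0.0458, adjusted p = 0.231 each), and r without the 2 fish farthest in CEBPA was 0.757 and 0.440. CEBPG and CEBPZ had r of 0.840 in bortezomib brains (exact permutation p = 0.00402, adjusted p = 0.0804), which was 0.741 without the 2 farthest fish and 0.625 after median-of-ratios scaling. Their rho was 0.857 (exact permutation p = 0.0107, adjusted p = 0.107). In vehicle brains the r of CEBPG and CEBPZ was 0.130 (exact permutation p = 0.767). CEBPA and CEBPD had r of 0.283 in bortezomib brains (exact permutation p = 0.485, adjusted p = 0.693). In vehicle brains their r was -0.679, a description without a p, since the vehicle brains high in CEBPD were known beforehand. CEBPA was thus high in vehicle replicates 2, 3 and 8, which were not the vehicle brains high in CEBPD.

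The genes most like CEBPB and CEBPD over the 8 vehicle brains, by the mean of the 2 Pearson r values among 12023 genes with a symbol and at least 5 TPM on average, were ZFP36, ZFAND5A, a RAC1 row (2 OF 5), CYR61, MKNK2, DUSP1, TRIB3 and GAL3ST1. Their mean r ran from 0.891 to 0.943, as a description over 8 fish, in which all genes of a fish share its library and its scaling. ZFP36, an RNA-decay factor of the early response, stood at 46.3, 21.9, 29.8, 42.0, 24.5, 21.5, 22.4 and 28.3 TPM in bortezomib replicates 1 to 8. In vehicle replicates 1 to 8 it stood at 46.2, 25.3, 69.3, 72.1, 126, 159, 111 and 48.4 TPM. Like both C/EBP genes it was highest in vehicle replicates 5, 6 and 7 and low in vehicle replicate 2. MKNK2, a kinase that acts on a translation factor, averaged 52.1 ± 10.5 TPM in bortezomib brains and 73.2 ± 35.8 TPM in vehicle brains (SD, n = 8 each; limma adjusted p = 0.419). TRIB3, a pseudokinase of the stress response, averaged 4.08 ± 0.98 and 8.95 ± 6.82 TPM (limma adjusted p = 0.180). Of the 8 genes, ZFP36, CYR61 and DUSP1 were called lower, with log2 differences of -1.29, -0.96 and -1.49 (limma adjusted p = 0.0245, 0.00578 and 0.0108).

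Leaving out the 4 fish with pituitary transcripts ended those 3 calls (limma adjusted p = 0.158, 0.0686 and 0.0736). Over all genes tested the calls fell from 901 to 325 in that fit, which has 6 fish per group. The call of ZFP36 was also lost without bortezomib replicate 6 or vehicle replicate 7. Log2 differences of ZFAND5A (-0.11), the RAC1 row (0.14) and GAL3ST1 (0.32) had limma adjusted p of 0.686, 0.674 and 0.479. Of the 8 genes that followed CEBPB and CEBPD over the vehicle brains, 3 were called lower over all fish and 5 did not pass. The share called lower among all genes tested was 1.25%, and 4.86% were called in either direction. The 8 genes were picked by their r over vehicle brains whose high CEBPB and CEBPD were known beforehand. Nothing is therefore read from their count. Reads of the RAC1 row may be split among 5 copies, so its value is uncertain.

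**Figure D4:**
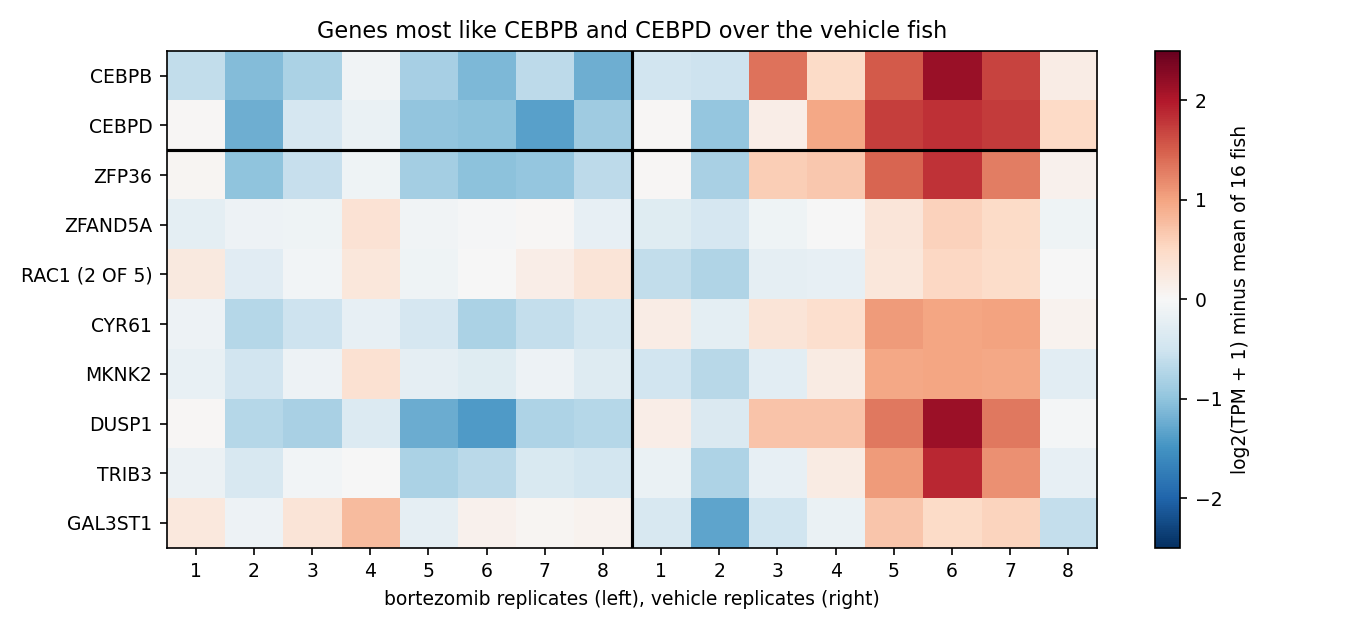
Centred log2(TPM + 1) of CEBPB, CEBPD and the 8 genes most like them over the vehicle brains, with 1 column per fish, bortezomib replicates on the left and vehicle replicates on the right. Vehicle replicates 5, 6 and 7 are the highest vehicle brains in every row, and the rows differ in how low the bortezomib brains lie.

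Over the 8 bortezomib brains the 8 most similar genes were SERINC2, CD53, CAV1, CTGFA, KCNE4, ZFP36, C19ORF24 and GADD45AB, with a mean r of 0.809 to 0.843. ZFP36 was the 1 gene on both lists. CD53, a tetraspanin of white blood cells, had a mean r of 0.832 in bortezomib brains and -0.515 in vehicle brains. CAV1, the caveolin of vessel cells, had 0.831 and -0.641, and KCNE4, a subunit of potassium channels, had 0.817 and -0.831. CTGFA, a matricellular growth factor, had 0.830 and 0.618, and GADD45AB, a stress-induced growth arrest gene, 0.809 and 0.840. Bortezomib replicates 1, 3 and 4 were the 3 highest bortezomib brains in CEBPD. They were also the highest in CD53, CAV1 and CTGFA, which follows closely from choosing these genes by their r over the same fish. The summed TPM of 17 microglia and macrophage marker rows was 555, 770 and 804.5 in bortezomib replicates 1, 3 and 4 and 391 to 490.5 in the other 5 bortezomib brains. The part of such cells in the order of the bortezomib brains was not tested. CTGFA and GADD45AB were called lower in bortezomib brains, with log2 differences of -0.81 and -0.68 (limma adjusted p = 0.00240 and 0.0142), and neither call held once the 4 fish with pituitary transcripts were left out (limma adjusted p = 0.0501 and 0.120).

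Of 10 tested ligands and receptors that act upstream of CEBPB and CEBPD in mammals 1 was lower, 0 were higher and 9 did not pass. Over all genes tested 1.25% were called lower and 3.61% higher. The median log2 difference was 0.089 against 0.035 over all genes tested. The lower gene was INSRA, an insulin receptor, at 21.3 ± 0.87 TPM in bortezomib brains and 26.3 ± 3.03 TPM in vehicle brains (log2 difference -0.28, limma adjusted p = 0.0271). Leaving out bortezomib replicate 4 or 6 ended the call (limma adjusted p of up to 0.0582). So did leaving out the 4 fish with pituitary transcripts (log2 difference -0.28, limma adjusted p = 0.116). IL6ST, the shared receptor chain of the interleukin-6 family, averaged 43.7 ± 3.95 and 37.4 ± 5.91 TPM (limma adjusted p = 0.167), and TNFRSF1A, a receptor of tumour necrosis factor, 4.02 ± 0.88 and 3.04 ± 0.99 TPM (limma adjusted p = 0.246). An IL6R row, IL1B and TNFB were under 1 TPM in every fish.

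Signal and transcription factors listed for the pathways that induce the family gave 1 lower gene of 33 tested and 0 higher, against 1.25% and 3.61% of all genes tested. The list also holds outputs of these pathways, PIM1 and SOCS3B among them. Their median log2 difference was 0.047. PIM1, a kinase induced by cytokine signals through STAT factors, stood at 19.2, 18.2, 21.3, 20.5, 18.4, 16.3, 16.6 and 11.3 TPM in bortezomib replicates 1 to 8. In vehicle replicates 1 to 8 it stood at 28.8, 22.4, 28.1, 29.7, 33.8, 27.4, 39.5 and 32.0 TPM. Every bortezomib brains lay below every vehicle brains, as in 0.221% of all genes tested (log2 difference -0.74 ± 0.12, limma adjusted p = 0.00211). STAT3, which carries interleukin-6 signals to the nucleus, averaged 25.4 ± 2.98 TPM in bortezomib brains and 25.4 ± 3.92 TPM in vehicle brains, and SOCS3B, a feedback inhibitor that STAT3 induces, 6.55 ± 1.24 and 7.84 ± 1.82 TPM (limma adjusted p = 0.973 and 0.346). NR3C2, the mineralocorticoid receptor, averaged 7.23 ± 1.55 and 5.02 ± 2.2 TPM (limma adjusted p = 0.162), and an SP1 row 1.90 ± 0.24 and 2.32 ± 0.20 TPM (limma adjusted p = 0.156).

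Partners and relatives of the C/EBP proteins gave 1 higher and 1 lower gene of 13 tested, against 3.61% and 1.25% of all genes tested. Their median log2 difference was 0.023. A BATF3 row, a leucine zipper factor of immune cells, averaged 2.63 ± 0.78 TPM in bortezomib brains and 5.34 ± 1.17 TPM in vehicle brains (log2 difference -0.81 ± 0.14, limma adjusted p = 0.00359). TEFB, a relative that follows the daily clock, was the higher gene, at 97.3 ± 19.7 and 66.3 ± 13.2 TPM (log2 difference 0.55, limma adjusted p = 0.0422). Its call was lost in 14 of 16 refits that each left out 1 fish, all but those without bortezomib replicate 8 or vehicle replicate 6 (limma adjusted p of up to 0.0780). It was also lost among the 12 fish with few pituitary transcripts (log2 difference 0.61, limma adjusted p = 0.107). Its duplicate TEFA averaged 144 ± 14.6 and 116 ± 22.0 TPM (limma adjusted p = 0.0856, or 0.0483 when the 4 fish with pituitary transcripts were left out). DDIT3, a partner that C/EBP proteins bind under stress, averaged 64.5 ± 8.74 and 61.8 ± 12.2 TPM (limma adjusted p = 0.746). ATF4, the partner of CEBPG, has 2 rows under other symbols that the list did not match, ATF4B1 and ATF4B2, named after their values were seen. ATF4B1 averaged 115 and 154 TPM and ATF4B2 133 and 177 TPM, in bortezomib and vehicle brains (limma adjusted p = 0.0434 and 0.173). At the threshold of 0.05 ATF4B1 was thus called lower and ATF4B2 was not, and neither is among the 13 genes. Refits of the ATF4B1 call are not given here.

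Regulators of C/EBP proteins gave 1 lower gene of 20 tested and 0 higher, against 1.25% and 3.61% of all genes tested. Their median log2 difference was -0.074. FBXW7, part of a ubiquitin ligase that targets C/EBP proteins in mammals, averaged 22.1 ± 3.24 TPM in bortezomib brains and 28.1 ± 2.73 TPM in vehicle brains (log2 difference -0.34, limma adjusted p = 0.0397). The call was lost in 10 of 16 refits that each left out 1 fish (limma adjusted p of up to 0.0758). Each of these 10 left out 1 of bortezomib 1, 4, 5, 6 and 7 and vehicle 1, 2, 3, 7 and 8. The FBXW7 call was also lost among the 12 fish with few pituitary transcripts (log2 difference -0.37, limma adjusted p = 0.115). A second FBXW7 row makes its reads uncertain. TRIB2 and TRIB1, pseudokinases that lead C/EBP proteins to degradation, had log2 differences of -0.27 and -0.39 (limma adjusted p = 0.0904 and 0.167).

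Of 16 tested genes reported as C/EBP targets in mammals, members left out, 3 were lower, 0 higher and 13 did not pass. Over all genes tested 1.25% were called lower and 3.61% higher. The median log2 difference of the targets was -0.35. IGFBP1A, a secreted binding protein of insulin-like growth factors, stood at 5.4, 5.3, 4.7, 7.2, 4.3, 4.7, 5.1 and 4.1 TPM in bortezomib replicates 1 to 8. In vehicle replicates 1 to 8 it stood at 6.7, 5.6, 8.4, 17.02, 45.7, 47.5, 71.5 and 13.6 TPM. As in CEBPD, vehicle replicates 5, 6 and 7 were the highest and vehicle replicate 2 the lowest of the vehicle brains (log2 difference -1.69, limma adjusted p = 0.0350). ALOX5AP, needed for leukotriene synthesis, averaged 2.23 ± 1.54 and 6.86 ± 4.05 TPM (log2 difference -1.26, limma adjusted p = 0.0346). MYCA, a copy of the growth factor-induced MYC gene, averaged 15.5 ± 2.90 and 21.7 ± 2.49 TPM (log2 difference -0.48, limma adjusted p = 0.0248).

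The IGFBP1A call was lost in 10 of 16 refits that each left out 1 fish (limma adjusted p of up to 0.0671). Each of these 10 left out 1 of bortezomib 1, 2, 4, 5, 6 and 7 and vehicle 4, 5, 6 and 7. The IGFBP1A call was also lost among the 12 fish with few pituitary transcripts (log2 difference -1.25, limma adjusted p = 0.175). The ALOX5AP call was lost in 8 of the 16 refits (limma adjusted p of up to 0.0658). Each of these 8 left out 1 of bortezomib 1, 2, 5 and 7 and vehicle 3, 6, 7 and 8. The list holds genes from liver and fat studies, and most of them have other regulators too.

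**Figure D5:**
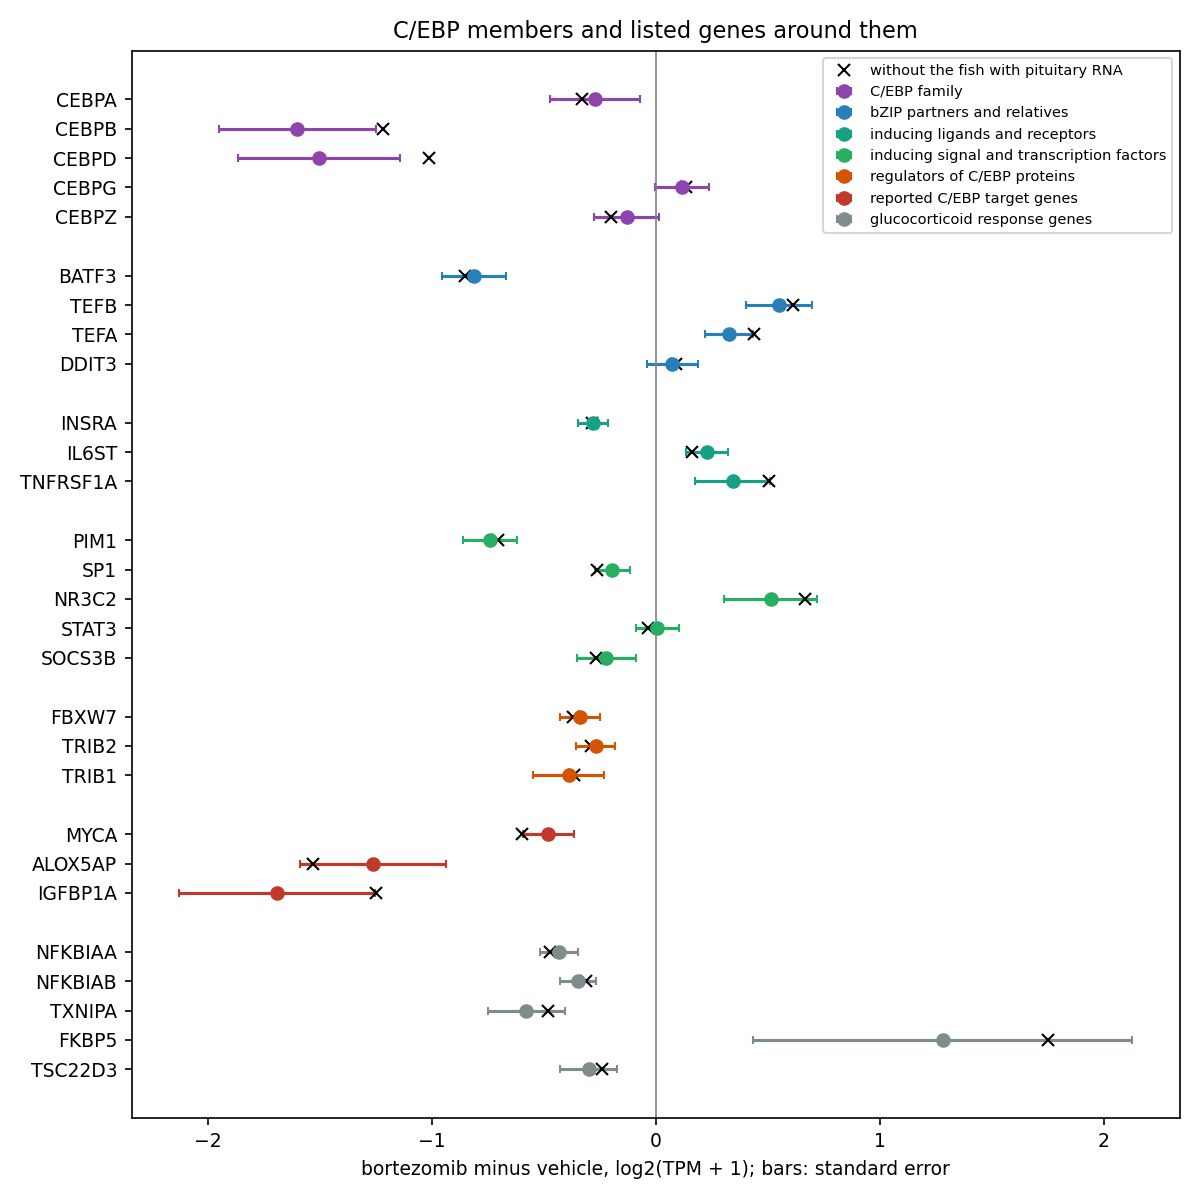
Log2 difference (bortezomib minus vehicle) on the log2(TPM + 1) scale for the C/EBP genes and the named genes of 6 lists, with standard errors as bars and crosses for the fit without the 4 fish with pituitary transcripts. CEBPB, CEBPD and IGFBP1A lie farthest to the left at -1.60, -1.50 and -1.69, and their crosses lie nearer to 0.

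Glucocorticoid response genes gave 2 lower of 15 tested and 0 higher, against 1.25% and 3.61% of all genes tested. Their median log2 difference was -0.35. Both lower genes were copies of the NF-kappa-B inhibitor, NFKBIAA at 8.28 ± 1.07 TPM in bortezomib brains and 11.5 ± 1.28 TPM in vehicle brains, and NFKBIAB at 90.0 ± 9.20 and 115 ± 14.3 TPM (limma adjusted p = 0.00923 and 0.0204). The NFKBIAB call was lost among the 12 fish with few pituitary transcripts (log2 difference -0.31 there and -0.35 over all fish, limma adjusted p = 0.120 there). TXNIPA and TSC22D3 had log2 differences of -0.58 and -0.30 (limma adjusted p = 0.0628 and 0.189). They did not pass in 14 and 15 of 16 refits that each left out 1 fish. TXNIPA passed without vehicle replicate 1 or 3. TSC22D3 passed without bortezomib replicate 4, which stood at 277 TPM against 140 to 174 TPM in the other bortezomib brains. FKBP5, a chaperone of the glucocorticoid receptor that the hormone induces, averaged 41.5 ± 28.9 TPM in bortezomib brains and 26.3 ± 31.8 TPM in vehicle brains (limma adjusted p = 0.397). It was high in bortezomib replicates 4, 6, 7 and 8, at 64.2 to 70.1 TPM, in which CEBPD lay at 30.5 to 70.4 TPM. Among vehicle brains it was high in replicates 5 and 6, at 78.9 and 73.4 TPM, but stood at 16.8 TPM in replicate 7.

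The 3 vehicle brains that were highest in CEBPD were also the 3 highest vehicle brains in 188 of 18529 genes tested, or 1.01%. The same 3 fish led in 6 of 15 glucocorticoid response genes, namely KLF9, both ERRFI1 rows, TXNIPA, DDIT4 (1 OF 2) and CDKN1A. They led in 6 of 35 immediate early genes, namely FOSB, IER2 (2 OF 2), ZFP36, SIK1, DUSP1 and GADD45BA. Of 16 tested reported target genes, members left out, they led in IGFBP1A and TRIB3. CEBPD defines these 3 fish and CEBPB was known to be high in them, so neither member is counted. They led in 2 of 13 vessel markers, CLDN5B and SOX17, and in 1 of 12 glia markers, ALDH1L1. CREM was the 1 such gene of 33 signal and transcription factors and TRIB3 that of 20 regulators, and the remaining lists held none (0). These genes were named here after their values were seen. FOS, the best known of the early genes, did not have those 3 fish as its highest vehicle brains. It stood at 14.2, 15.5, 15.9, 14.1, 13.1, 10.4, 18.1 and 10.1 TPM in bortezomib replicates 1 to 8, and at 62.3, 51.4, 57.9, 30.7, 44.2, 57.2, 32.7 and 27.1 TPM in vehicle replicates 1 to 8. Vehicle replicates 1 and 2, which lay beside the bortezomib brains in CEBPB, CEBPD and IGFBP1A, were thus far above every bortezomib brains in FOS. Of all 35 early genes 21 were called lower and 0 higher, against 1.25% and 3.61% of all genes tested, with a median log2 difference of -0.56. Among them were FOS at -1.60 and the IER2 rows (2 OF 2) and (1 OF 2) at -1.67 and -1.17 (limma adjusted p = 2.8e-05, 6.23e-05 and 0.000329). Among the 12 fish with few pituitary transcripts 11 of the 35 were called lower, with a median log2 difference of -0.60. In proteasome subunits none of 34 genes (0) had those 3 vehicle brains as the highest. Of the 34 genes 33 were called higher in bortezomib brains, for example PSMA4 at 209 ± 14.3 and 110 ± 2.45 TPM (limma adjusted p = 1.05e-08). PSMD7 averaged 266 ± 19.3 TPM in bortezomib brains and 137 ± 10.2 TPM in vehicle brains, and PSMA3 259 ± 22.0 and 139 ± 8.29 TPM (limma adjusted p = 7.63e-08 and 1.42e-07).

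Markers of cell types were read beside these values, with 1.25% of all genes tested called lower and 3.61% higher. The summed TPM of 18 neuron marker rows was 4620 to 5297 in bortezomib brains and 3231 to 4512 in vehicle brains, without overlap. Among single genes tested 1.08% had every bortezomib brain above every vehicle brain. Of the 18 log2 differences 16 were above 0, and 1 gene, SNAP25 (2 OF 2), was called higher. The sum of 13 oligodendrocyte rows was 5993 to 11160 TPM and 7914 to 14290 TPM, with MAG called higher though 12 of the 13 log2 differences were below 0. Microglia and macrophage markers summed to 391 to 804.5 TPM in bortezomib brains and 363 to 769 TPM in vehicle brains, with none of 15 tested genes called (0). Vehicle replicate 7, among the highest in CEBPD, had the lowest of these sums, 363 TPM. Granulocyte markers summed to 14.1 to 44.6 and 26.2 to 90.0 TPM, with the highest sum in that same vehicle replicate 7. The neutrophil protease MMP9 was under 1 TPM in every fish. Vessel markers summed to 195 to 334 and 247 to 284 TPM, and RGS5B and SOX17 were called lower. Glia markers GLUL (2 OF 2) and SOX9A were also called lower, and the sum of that list was 2425 to 3999 and 2348 to 3210 TPM. Blood markers summed to 37.0 to 71.9 and 44.1 to 83.3 TPM, and meninges and fibroblast markers to 64.8 to 118 and 66.3 to 99.7 TPM, with none called in either list (0 and 0). The calls of MAG, GLUL (2 OF 2), SOX9A and SOX17 were lost among the 12 fish with few pituitary transcripts. Those of MAG, GLUL (2 OF 2) and SOX9A were also lost in 10, 10 and 6 of the 16 refits that each left out 1 fish, and that of GLUL (2 OF 2) under median-of-ratios and upper-quartile scaling. The part of cell makeup in the C/EBP values was not tested.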

How the data were processed

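The authors deposited 1 table of TPM values for 16 brains, 8 of bortezomib fish and 8 of vehicle fish. Its columns each sum to 1000000. Per the submitters' processing notes bcl2fastq 2.20.0.422 and STAR were used. Which counter, build and annotation were used is not given in the sources used here. TPM keeps no read depth, so the depth behind each value is unknown and no counting interval is given.

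The test was limma 3.58.1 (R 4.3.3, mean-variance trend) on log2(TPM + 1), a scale that understates the change of low genes, for the 18529 of 26739 rows that reached 1 TPM in 8 fish or more, all 5 members among them. Its two-sided p was adjusted by Benjamini-Hochberg over all genes tested, and called means an adjusted p under 0.05. Relations between members used exact permutation tests. The fit was also run on simulated data with independent noise of the same spread in both groups. CEBPB and CEBPD differed in spread between the groups, so that run does not bear on their calls.

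The members and lists were chosen with earlier results of these data known. Genes named were all members, the 3 smallest p in each list that is not a marker list, called regulators and targets, the 8 genes most like CEBPB and CEBPD in each group, and set genes where a row matched (DDIT3, FKBP5, TSC22D3, IGFBP1A, SOCS3B and STAT3). Other genes named beyond this rule, such as called markers, were chosen after their values were seen. List symbols were matched in upper case, with duplicate suffixes allowed. Each fish is 1 sample, and neither its sex nor a batch of libraries is stated in the labels. Fish counted as holding pituitary transcripts had summed hormone markers over 10 times the median. None of the file's identifiers was found in the RefSeq table (0), so no coordinates are given. Python 3.11.15 with numpy 2.4.6, pandas 2.3.3, scipy 1.17.1 and matplotlib 3.10.9 was used for the rest.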

Additional observations from a re-analysis of the deposited data

Results flagged for a closer look

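CEBPB in bortezomib replicate 4, at 32.5 TPM, lay far above the other bortezomib brains, with a gap of 0.562 of the group's range to the next fish. CEBPZ in bortezomib replicate 8, at 8.72 TPM, lay far below the other bortezomib brains, with a gap of 0.555. After median-of-ratios scaling CEBPZ in that fish was 10.3 TPM, still the lowest, and that fish had the lowest scaling factor of all 16, at 0.845. Both gaps are on the TPM scale. On log2(TPM + 1) the gap of CEBPB was 0.466 of the range, too small to stand out, and that of CEBPZ was 0.649. Of 10 groups checked these 2 stood out on the TPM scale, where chance marks about 1 in 20.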

How the results depend on the processing

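The number of genes called over all genes was 901. It was 491 with the replicate number as a block, 1892 with array weights and 2434 with the first residual component as a covariate. Without the 4 fish with pituitary transcripts it was 325, in a fit on 6 fish per group. Leaving out 1 fish gave 485 to 1108, with 533 without bortezomib replicate 4, 485 without bortezomib replicate 6 and 586 without vehicle replicate 7. As a description, since the family was chosen on this difference, of the 5 members 2 were called, 1 under the replicate block, 0 without the 4 fish with pituitary transcripts, and 1 to 2 when 1 fish was left out. CEBPD was the member not called without bortezomib replicate 6, without vehicle replicate 7 and under the block. The deviations of same-numbered fish correlated at -0.24 to 0.415, above 0.1 for replicates 2, 3 and 6 (0.193, 0.415 and 0.262) and not for the other 5, and 1 of 16 fish correlated best with its own number, so the numbers were not taken to pair the fish.

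The log2 differences of CEBPB and CEBPD lay between -1.79 and -1.41 and between -1.75 and -1.35 over refits that each left out 1 fish. Within the 4 fish with pituitary transcripts they were -2.74 and -2.97, an alternative chosen after seeing the data, as were the group medians and the scaled or restricted correlations. The correlation of CEBPB and CEBPD in bortezomib brains was lowest without bortezomib replicate 4, at 0.419 (exact permutation p = 0.351). It was highest without bortezomib replicate 7, at 0.772 (exact permutation p = 0.0339, not adjusted). The other refits that left out 1 bortezomib fish had exact permutation p of 0.130 to 0.211. The cause of these shifts was not tested. Of 171 tested genes in the lists around the family 63 were called. Among these were 33 proteasome subunits called higher and 21 immediate early genes called lower. Over all genes tested 4.86% were called. The alternatives called 48 to 73 of the listed genes, with 151 to 186 tested. The block also ended the calls of INSRA, TEFB, FBXW7, MYCA, IGFBP1A, ZFP36, DUSP1, MAG and SOX9A, and 17 of the 35 immediate early genes were then called. NFKBIAB was not called after upper-quartile scaling. The unknown read depth limits the precision of the lowest values.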

Other observations

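KLF9, a transcription factor that glucocorticoids induce, stood at 77.4, 70.7, 88.9, 110, 59.2, 84.8, 64.0 and 88.2 TPM in bortezomib replicates 1 to 8. In vehicle replicates 1 to 8 it stood at 58.9, 29.1, 37.1, 154, 264, 245, 226 and 128 TPM. Vehicle brains thus lay both below and above the bortezomib brains, and the difference between the means, 80.4 TPM in bortezomib brains and 143 TPM in vehicle brains, did not pass the test (log2 difference -0.45 ± 0.41, limma adjusted p = 0.554).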
